A study of Mus musculus with 6 samples.

Results

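The 10 genes described here carry out cholinergic transmission, the signalling of neurons that release acetylcholine. They were chosen by name from the table of adult brain counts, which lists 53801 genes, and all 10 were among the 23975 genes tested, which had 10 counts or more when summed over the samples. The table came from RNA-seq of one brain hemisphere of each of 3 Bahd1-KO mice (genotype Bahd1-/-) and 3 Bahd1-WT mice (genotype Bahd1+/+), all adult C57BL/6 mice of about 70 weeks. BAHD1 is a factor of heterochromatin, the compact form of chromatin, and the Bahd1-KO mice lacked both copies of its gene throughout the body. They came from crosses of heterozygous mice, and since many mice of this genotype die around birth, the adults were survivors. Each sample was a different animal.

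Acetylcholine is made from choline and acetyl-CoA by choline acetyltransferase, the product of Chat, in few groups of neurons, among them those of the basal forebrain, interneurons of the striatum and motor neurons of the brainstem. After its release acetylcholinesterase, from Ache, splits it, and the choline transporter from Slc5a7 carries the choline back into the nerve ending. Between these steps it binds muscarinic receptors, which act through G proteins (Chrm1 to Chrm4), and nicotinic receptors, which are ion channels built of subunits such as those from Chrna4, Chrna7 and Chrnb2.

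Acetylcholinesterase, the muscarinic receptor Chrm4 and the nicotinic subunit Chrna4 were at higher levels in all 3 Bahd1-KO hemispheres than in any Bahd1-WT hemisphere, by 2.52, 3.74 and 1.80 times on average, and so were Chat and Chrm1, by 1.998 and 1.51 times. Slc5a7 and Chrm2 were lower on average, by 1.28 and 1.29 times, with overlapping groups, and both turned to the other side of 0 with the correction for base composition given below. None of the 10 genes passed an adjusted p of 0.05 in edgeR's quasi-likelihood test with Benjamini-Hochberg adjustment, where 0.00834% of all genes tested did. At an adjusted p under 0.1, 5 of the 10 genes were found, all higher in Bahd1-KO, beside 19.5% of all genes. At an unadjusted p under 0.05, 5 of the 10 genes were higher in Bahd1-KO and 0 were lower, while 19.9% of all genes tested were higher and 12% lower by the same rule. The differences ran with the base composition of the transcripts, and after a correction for it Ache and Chrna4 had nearly the same level in both genotypes. In these bulk samples, fewer cells of a type and less RNA per cell cannot be told apart.

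The libraries held 42297150 to 93557948 counts. Reads of the targeted gene, Bahd1, numbered 1383, 844 and 1099 in the Bahd1-WT libraries against 0, 14 and 1 in those of Bahd1-KO, as the labels require. Levels are given in CPM, the counts of a gene scaled to a common library size, with library sizes normalized by the TMM method. Libraries differed in how their counts depended on GC content, the percentage of G and C bases in a transcript. Expressed genes were split by GC content into deciles, and the median log2 CPM of the decile with the most GC minus that of the decile with the least was -2.14, -2.72 and -2.42 in Bahd1-WT replicates 1, 2 and 3. In the Bahd1-KO libraries it was -1.58, 0.76 and -0.71 in the same order. Bahd1-KO replicate 1 lay nearest to the Bahd1-WT libraries and Bahd1-KO replicate 2 farthest.

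The 4 muscarinic receptor genes show how widely members of one family differ in this property. Below is the stretch of 90 coding bases in which their aligned coding sequences are most alike, from the GENCODE transcripts of GRCm38, with every G and C in capitals. It is the same in all 4 genes at 64 of the 90 bases, and Chrm1 and Chrm4 hold 49 and 46 G or C bases where Chrm3 holds 42 and Chrm2 holds 39.
Chrm1: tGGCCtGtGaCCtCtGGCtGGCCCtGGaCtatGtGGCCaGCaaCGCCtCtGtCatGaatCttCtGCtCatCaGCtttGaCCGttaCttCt
Chrm2: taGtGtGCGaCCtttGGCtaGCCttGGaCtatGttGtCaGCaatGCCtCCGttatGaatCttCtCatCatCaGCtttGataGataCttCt
Chrm3: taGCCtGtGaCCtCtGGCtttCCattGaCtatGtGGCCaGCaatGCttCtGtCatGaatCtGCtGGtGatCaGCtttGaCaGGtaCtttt
Chrm4: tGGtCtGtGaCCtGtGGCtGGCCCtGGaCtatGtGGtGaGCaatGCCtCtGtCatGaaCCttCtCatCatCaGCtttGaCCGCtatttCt
Over the whole coding sequence GC content was 57.9% in Chrm1, 57.1% in Chrm4, 51.2% in Chrm3 and 48.3% in Chrm2. Kinship followed another line, since Chrm2 was most like Chrm4 (63.5% of aligned coding bases identical) and Chrm1 most like Chrm3 (64.8%).

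Chat (ENSMUSG00000021919, chr14:32408203-32465989, minus strand of GRCm38) had 1.53, 1.86 and 2.21 CPM in Bahd1-WT replicates 1, 2 and 3, and 2.44, 4.01 and 4.72 CPM in Bahd1-KO replicates 1, 2 and 3. The groups did not overlap, with Bahd1-KO replicate 1 the closest to Bahd1-WT. Its log2 fold change was 1.00 ± 0.30 (SE, n = 3 per genotype; edgeR adjusted p = 0.0718). These levels rest on 106 to 382 counts per library, the fewest of the 10 genes except for Chrm4 in 2 Bahd1-WT libraries. The gene for the vesicular acetylcholine transporter, Slc18a3, lies within the span of Chat, near its start, on the same strand, and shares 0 exon bases with it.

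Slc5a7 (ENSMUSG00000023945, chr17:54273590-54299034, minus strand), whose product limits the rate of acetylcholine synthesis, had 17.6, 30.5 and 23.5 CPM in Bahd1-WT and 22.7, 11.5 and 21.7 CPM in Bahd1-KO. The groups overlapped, and the lowest value came from Bahd1-KO replicate 2. The log2 fold change was -0.36 ± 0.30 (edgeR adjusted p = 0.427), and -0.11 without that sample. With the correction for base composition described below, the Slc5a7 value was 0.15. Slc5a7 has the transcript with the least GC of the 10 genes, 40.8%, and Chat has 54.3%.

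Ache (ENSMUSG00000023328, chr5:137287519-137294466, plus strand) had 29.9, 22.5 and 23.2 CPM in Bahd1-WT and 33.2, 99.97 and 57.2 CPM in Bahd1-KO. Bahd1-KO replicate 1 was just above the highest Bahd1-WT value, and Bahd1-KO replicate 2 was far above it. The log2 fold change was 1.33 ± 0.36 (edgeR adjusted p = 0.0647), and without Bahd1-KO replicate 2 it was 0.85. The Ache transcript holds the most GC of the 10, 60.4%.

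Of the muscarinic receptors, Chrm4 (ENSMUSG00000040495, chr2:91927249-91928688, plus strand), which couples to inhibitory G proteins and is known from the striatum, had 3.56, 1.51 and 1.61 CPM in Bahd1-WT and 3.63, 14.4 and 6.98 CPM in Bahd1-KO. Bahd1-KO replicate 1 exceeded Bahd1-WT replicate 1 by little, while the other Bahd1-KO samples stood well above. Its log2 fold change of 1.90 ± 0.53 was the largest of the 10 genes (edgeR adjusted p = 0.066), and the value was 1.26 without Bahd1-KO replicate 2. The annotated Chrm4 gene is a single exon of 1440 bases that holds little but coding sequence, and it begins 5060 bases downstream of the RefSeq start.

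Chrm1 (ENSMUSG00000032773, chr19:8663789-8683587, plus strand), the excitatory muscarinic receptor of cortex and hippocampus, had 54.0, 48.7 and 59.3 CPM in Bahd1-WT and 62.2, 103 and 78.3 CPM in Bahd1-KO. The groups did not overlap, and the log2 fold change was 0.59 ± 0.21 (edgeR adjusted p = 0.0996), and 0.38 without Bahd1-KO replicate 2. Chrm2 (ENSMUSG00000045613, chr6:36388084-36528414, plus strand), an inhibitory receptor that serves as autoreceptor on cholinergic endings, had 56.2, 56.5 and 50.4 CPM in Bahd1-WT and 54.0, 28.6 and 43.7 CPM in Bahd1-KO. Only Bahd1-KO replicate 1 lay within the Bahd1-WT range, and the log2 fold change was -0.37 ± 0.23 (edgeR adjusted p = 0.286), and -0.16 without Bahd1-KO replicate 2. Chrm3 (ENSMUSG00000046159, chr13:9875486-10360847, minus strand), which couples to the same G proteins as Chrm1, had 29.0, 28.4 and 41.2 CPM in Bahd1-WT and 34.8, 29.5 and 36.8 CPM in Bahd1-KO. The Bahd1-KO values of Chrm3 lay within the Bahd1-WT range, with a log2 fold change of 0.03 ± 0.20 (edgeR adjusted p = 0.921), whose sign turned with upper-quartile scaling.

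Set against each other per kilobase of exon, the muscarinic genes differed in their shares, most in Bahd1-KO replicate 2. Chrm2 made up 37.6%, 41.6% and 33.0% of their summed CPM per kilobase in Bahd1-WT, and 33.5%, 13.3% and 24.0% in Bahd1-KO. Chrm4 made up 10.004%, 4.66% and 4.44% in Bahd1-WT and 9.48%, 28.2% and 16.1% in Bahd1-KO. Bahd1-KO replicate 1 had nearly the same shares as Bahd1-WT replicate 1, while in Bahd1-KO replicate 2 the share of Chrm4 was above that of Chrm2. With the GC and length offset described below this order turned, and in Bahd1-KO replicate 2 Chrm4 made up 15.2% and Chrm2 25.3%. Shares with that offset can be compared between libraries, but are not corrected for base composition between the genes. Chrm1 had 33.5% to 36.3% in Bahd1-WT and 36.1% to 45.1% in Bahd1-KO, and Chrm3 had 18.8% to 26.2% and 13.4% to 20.9%.

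The nicotinic subunits Chrna4 and Chrnb2 together form the main high-affinity nicotinic receptor of the brain. Chrna4 (ENSMUSG00000027577, chr2:181018380-181043546, minus strand) had 29.2, 25.3 and 30.6 CPM in Bahd1-WT and 35.6, 63.0 and 54.2 CPM in Bahd1-KO, without overlap. Its log2 fold change was 0.84 ± 0.23 (edgeR adjusted p = 0.0647). Chrnb2 (ENSMUSG00000027950, chr3:89746195-89764632, minus strand) had 69.0, 62.6 and 74.6 CPM in Bahd1-WT and 66.1, 83.2 and 73.6 CPM in Bahd1-KO. The Chrnb2 groups overlapped, and the log2 fold change was 0.11 ± 0.16 (edgeR adjusted p = 0.642), with the sign turned by upper-quartile scaling. Chrnb2 shares 1365 exon bases, 16.3% of its exons, with Adar on the opposite strand, so that its value depends on how strands were treated. The methods name a directional kit and a counting setting for the strand opposite to the usual one for that kit. Markers of neurons were counted at 5735 to 8403 CPM in sum, but CPM is relative to the reads counted and cannot settle the strand. Which strand was counted, and whether strands were kept apart, was not settled. This limits the Chrnb2 values and the ratio of Chrna4 to Chrnb2.

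Chrna7 (ENSMUSG00000030525, chr7:63098692-63212569, minus strand) forms receptors of a single kind of subunit, with high permeability to calcium. It had 4.28, 3.89 and 6.04 CPM in Bahd1-WT and 3.91, 6.07 and 6.74 CPM in Bahd1-KO. The groups overlapped, with a log2 fold change of 0.24 ± 0.28 (edgeR adjusted p = 0.574) that ranged from 0.09 to 0.46 with single mice left out.

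**Figure D1:**
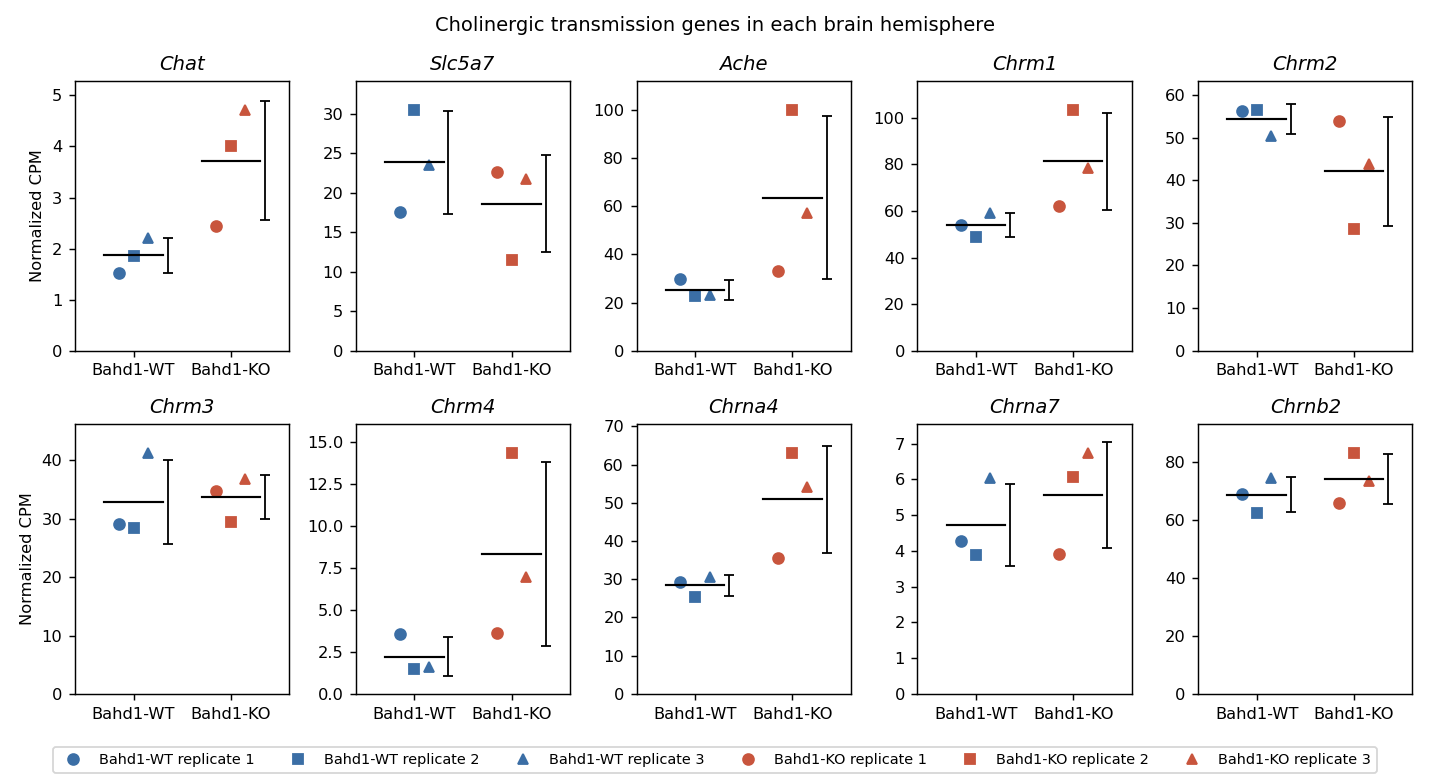
Normalized CPM (counts scaled to a common library size) of the 10 genes in each of 3 Bahd1-WT (blue) and 3 Bahd1-KO (red) hemispheres. The vertical axes start at 0, the bar is the mean, the whisker the SD, and the shape of a point gives the replicate. In Chat, Ache, Chrm1, Chrm4 and Chrna4 all 3 Bahd1-KO samples lie above the Bahd1-WT samples, and in all 5 Bahd1-KO replicate 1 is the lowest Bahd1-KO sample.

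Counted over the 10 genes, 5 were higher in Bahd1-KO without overlap of the groups and 0 were lower without overlap, where 20.6% of all genes tested were higher and 19.3% lower in this way. The median log2 fold change was 0.41 over the 10 genes and -0.06 over all genes tested. DESeq2 with the normal prior, the tool named in the study's methods, called 4 of the 10 at an adjusted p under 0.05, namely Chat, Ache, Chrm4 and Chrna4 with adjusted p of 0.0116, 0.00333, 0.0013 and 0.0105. All 4 were higher in Bahd1-KO, as were 14.3% of all genes by this rule, and 0 were lower, as were 2.85% of all genes, and 2 of them (Ache and Chrm4) also passed a change of 2-fold, as did 9.61% of all genes in this direction. Without the prior the same 4 genes passed, and 3 of them also passed 2-fold, since Chat came to 1.02 on the log2 scale from 0.96 with the prior, beside 10.5% of all genes higher. Which genes passed an adjusted p of 0.05 thus depended on the tool and, within edgeR, on the scaling, the filter and 1 library. With edgeR, 3 of the 10 genes passed with total counts as library sizes, beside 9.4% of all genes, 4 with a minimum of 1 count, beside 11% of 32795 genes, and 5 without Bahd1-KO replicate 1, beside 30% of 23690 genes.

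Within Bahd1-WT brains, levels per length were highest for Chrm2, Chrm1 and Chrnb2, at 8.98 ± 0.57, 8.33 ± 0.81 and 8.20 ± 0.72 CPM per kilobase of exon (SD, n = 3), which overlapped as neighbours in the order. Below them came Chrna4 (5.65 ± 0.54), Ache (5.46 ± 0.89), Chrm3 (5.26 ± 1.16) and Slc5a7 (4.23 ± 1.15), each overlapping the next. A gap set these apart from Chrm4 (1.55 ± 0.80) and Chrna7 (1.05 ± 0.25), and a further gap from Chat (0.40 ± 0.07), the lowest of the 10. With the GC and length offset described below, the Bahd1-WT order began with Chrm1 (9.33 ± 0.69), Chrnb2 (9.21 ± 0.65) and Ache (8.52 ± 0.60), with Chrm2 at 7.51 ± 0.46. That offset brings both genotypes to the mean trend of all libraries, and does not correct the levels of different genes against each other. In Bahd1-KO brains the order without the offset began with Ache (13.7 ± 7.32), Chrm1 (12.5 ± 3.19) and Chrna4 (10.1 ± 2.79), but with the offset Chrm1 led with 10.98 ± 1.28, and Ache was at 7.92 ± 0.46 and Chrna4 at 7.61 ± 0.73. Without the offset, each gene from Ache down to Chrm2 overlapped the next in that order, while all values of Chrm3 (5.39 ± 0.60) lay below those of Ache, Chrm1, Chrna4 and Chrnb2. These lengths count the exons of all transcripts of a gene, which exceed those of the longest one, most for Ache (4623 against 2186 bases) and Chrna7 (4505 against 2078). Per kilobase of the longest transcript, a scale added, like the levels and shares with the offset, after the values were seen, Ache led in Bahd1-WT with 11.5 ± 1.87 CPM, before Chrnb2 with 10.7 ± 0.94, Chrna7 came before Chrm4, and Chat was again the lowest with 0.65 ± 0.12.

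The log2 fold changes were then set against the GC content of the transcripts. Over the 13283 expressed genes the median log2 fold change climbed from -0.56 in the decile with the least GC to 1.44 in the decile with the most. The 10 cholinergic genes followed the same order, with a Spearman correlation of GC content and log2 fold change of 0.93 over 10 genes measured in the same 6 libraries, given as a description. Ache lay 0.11 below the median log2 fold change of its decile, at the percentile 43.6, and Chrna4 lay 0.08 below, at the percentile 42.7. Chrm4 lay 0.98 above the median of its decile, at the percentile 96.2. Slc5a7, Chat, Chrm1 and Chrm2 were also above the medians of their deciles, at the percentiles 89.1, 84.6, 81.1 and 66.6. Chrna7, Chrm3 and Chrnb2 were below them, at 44.2, 42.8 and 28.7.

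**Figure D2:**
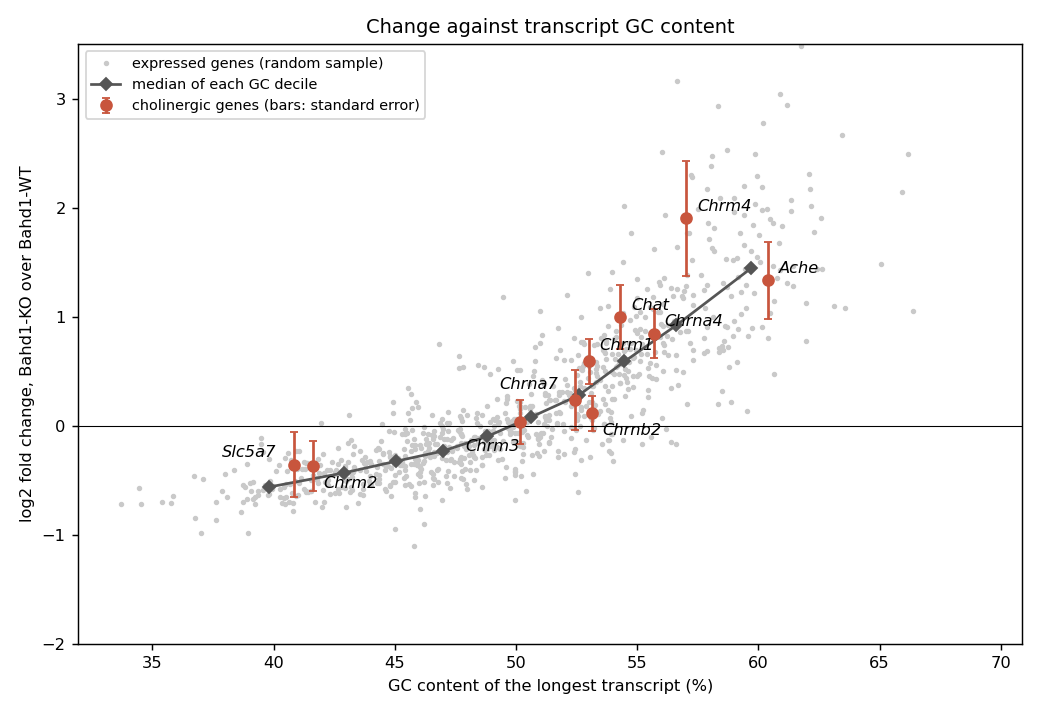
Log2 fold change of Bahd1-KO over Bahd1-WT against the GC content of the longest transcript, for a random sample of 899 expressed genes (grey; 1 more lies beyond the axis), the median of each decile of expressed genes by GC content (diamonds) and the 10 cholinergic genes (red, with standard errors). The genes lie along the climb of the medians, and Chrm4 stands 0.98 above the median of its decile.

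A fit with an offset changed the picture of the list. The offset takes from each library its departure from the mean trend of the 6 libraries with transcript GC content and length. It thus corrects libraries against each other and leaves effects of base composition between genes in place. It also takes away any genotype difference that runs with GC content, so both sets of values are given. The median log2 fold change of the 10 genes became 0.08, against -0.04 over all genes, with 7 higher and 3 lower. With this offset 0 of the 10 genes passed an adjusted p of 0.05 in edgeR, where 0.025% of all genes did. At an unadjusted p under 0.05, 1 gene was higher and 1 lower, against 9.53% and 10.9% of all genes.

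Chrm4 was the gene higher at that threshold. Its levels with the offset were 4.47, 2.50 and 2.28 CPM in Bahd1-WT and 3.44, 6.33 and 5.65 CPM in Bahd1-KO. The groups overlapped, since Bahd1-KO replicate 1 fell within the Bahd1-WT range, and the log2 fold change was 0.73 ± 0.29 (edgeR adjusted p = 0.198). Chrnb2 was the gene lower, with 72.0, 76.8 and 82.9 CPM in Bahd1-WT and 70.6, 64.6 and 62.5 CPM in Bahd1-KO. Its groups did not overlap, and the log2 fold change was -0.23 ± 0.10 (edgeR adjusted p = 0.214). It was the only one of the 10 genes without overlap, where 13.6% of all genes tested were lower and 11.4% higher without overlap with the offset.

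Ache had 38.6, 42.5 and 37.1 CPM in Bahd1-WT and 35.1, 35.6 and 39.1 CPM in Bahd1-KO with the offset. Its log2 fold change turned from 1.33 to -0.10 ± 0.10 (edgeR adjusted p = 0.6). Chrna4 moved to 0.05 ± 0.11 (edgeR adjusted p = 0.832) and Chat to 0.43 ± 0.24 (edgeR adjusted p = 0.364), and Chrm1 went from 0.59 to 0.24 ± 0.11 with overlapping groups (edgeR adjusted p = 0.26). Slc5a7 and Chrm2 turned to 0.15 and 0.10, and Chrna7 to -0.04. Chrm3 stayed at 0.03.

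**Figure D3:**
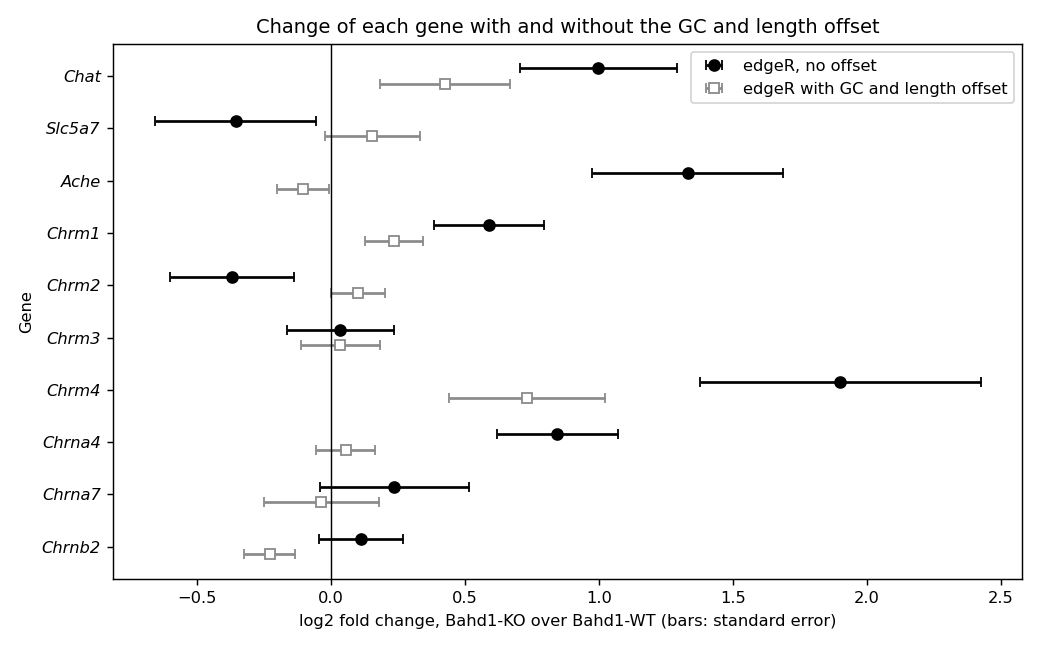
Log2 fold change of Bahd1-KO over Bahd1-WT of each of the 10 genes without (black circles) and with (grey squares) the GC and length offset, with standard errors as bars. Ache moves from 1.33 to -0.10 and Chrna4 from 0.84 to 0.05, and Chrm4 from 1.90 to 0.73.

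Ratios between genes of one library do not depend on its size, and 5 of them were compared by an exact two-sided permutation test, which cannot go below p = 0.1 with 3 against 3 samples. The ratio of Chrna4 to Chrnb2 counts, the subunits of one receptor, was 0.423, 0.405 and 0.410 in Bahd1-WT and 0.538, 0.758 and 0.736 in Bahd1-KO. The Bahd1-WT values were close together and all Bahd1-KO values lay above them, with a difference of 0.70 on the log2 scale (exact permutation p = 0.1, adjusted p = 0.167). With the offset the ratios were 0.466, 0.488 and 0.477 against 0.521, 0.549 and 0.679, still apart, and the difference was 0.28 (exact permutation p = 0.1, adjusted p = 0.25).

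The ratio of Chat to Slc5a7, both made by cholinergic neurons, was 0.0871, 0.0610 and 0.0940 in Bahd1-WT and 0.107, 0.349 and 0.217 in Bahd1-KO. The groups did not overlap, and the log2 difference of 1.34 (exact permutation p = 0.1, adjusted p = 0.167) became 0.25 with the offset (exact permutation p = 0.2, adjusted p = 0.25), where they did. The ratio of Chrm2 to Chrm4 was 15.8, 37.5 and 31.3 in Bahd1-WT and 14.9, 1.99 and 6.26 in Bahd1-KO. It was lower in Bahd1-KO without overlap, with a log2 difference of -2.22 (exact permutation p = 0.1, adjusted p = 0.167) that was -1.46 without Bahd1-KO replicate 2 and -2.91 without Bahd1-KO replicate 1, and with the offset the groups overlapped and the difference was -0.66 (exact permutation p = 0.2, adjusted p = 0.25). The ratios of Chrm1 to Chrm3 and of Ache to Chat overlapped between genotypes, with log2 differences of 0.51 and 0.24 (exact permutation p = 0.2 and 0.5, adjusted p = 0.25 and 0.5). With the offset they were 0.18 and -0.52 (exact permutation p = 0.6 and 0.2, adjusted p = 0.6 and 0.25), so that the Ache to Chat ratio turned. From the counts, the Chrm1 to Chrm3 difference was 0.23 without Bahd1-KO replicate 2 and 0.72 without Bahd1-KO replicate 1.

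**Figure D4:**
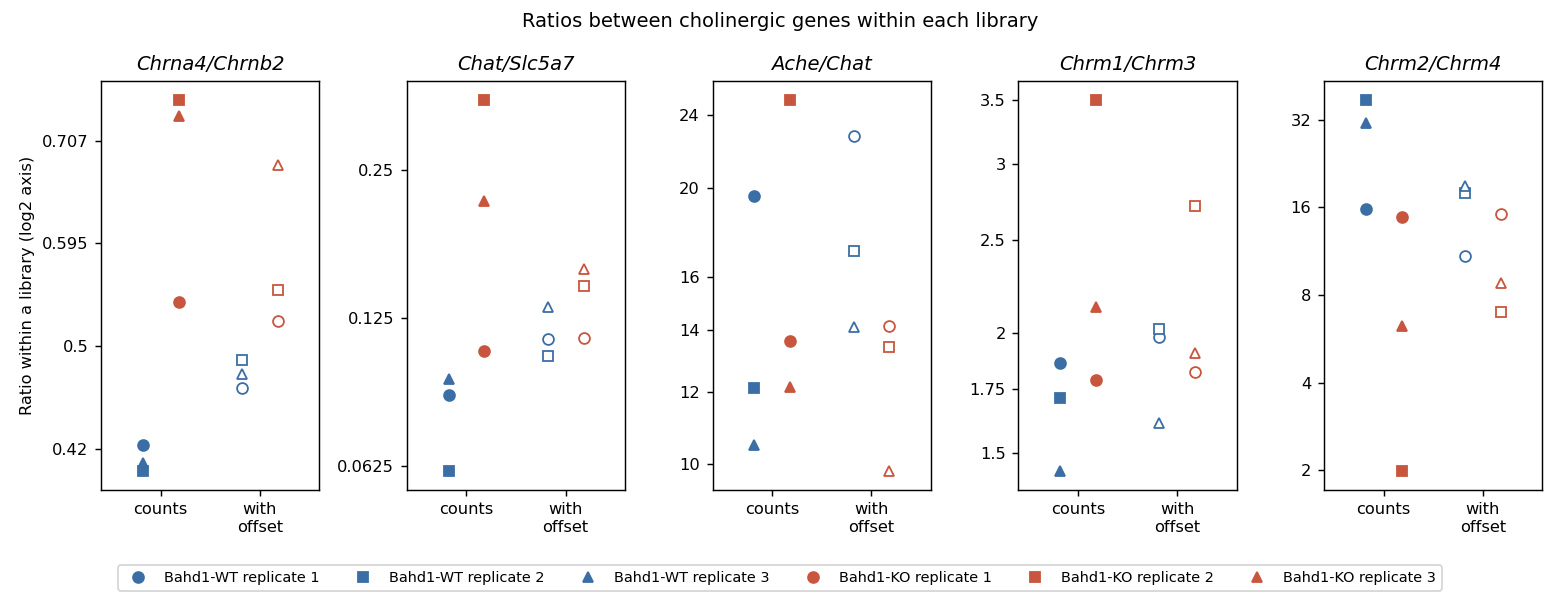
Ratios of 5 pairs of the genes within each library, on log2 axes, from the counts (filled) and from values with the GC and length offset (open), for 3 Bahd1-WT (blue) and 3 Bahd1-KO (red) hemispheres. The ratio of Chrna4 to Chrnb2 is higher in all Bahd1-KO libraries in both sets of values, and the Chrm2 to Chrm4 ratio is 1.99 in Bahd1-KO replicate 2 against 15.8 to 37.5 in Bahd1-WT.

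A wider list of 42 other genes of the pathway was described by the same fit, of which 40 were tested and the muscle receptor subunits Chrnd and Chrng were at 0 or 1 count in every library. Of the 40 genes, 21 were higher and 19 lower in Bahd1-KO, with a median log2 fold change of 0.00, against -0.06 over all genes. None passed an adjusted p of 0.05 in edgeR, and at an unadjusted p under 0.05, 10 were higher and 4 lower, beside 19.9% and 12% of all genes. By DESeq2 with its normal prior, 9 of them passed an adjusted p of 0.05, all higher, beside 14.3% of all genes higher and 2.85% lower. With the GC and length offset, 5 were higher and 5 lower at an unadjusted p under 0.05, beside 9.53% and 10.9% of all genes, shares near those of the list. Counts over the groups below are of few genes, and stand beside the same shares over all genes, 19.9% higher and 12% lower without the offset and 9.53% and 10.9% with it.

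In the group for vesicle loading and choline supply, 2 of 6 genes were higher and 1 lower at an unadjusted p under 0.05, and 3 higher and 2 lower with the offset. Slc18a3, whose product fills synaptic vesicles with acetylcholine, had 0.328, 0.486 and 0.573 CPM in Bahd1-WT and 1.15, 4.63 and 2.004 CPM in Bahd1-KO. It did not overlap, with a log2 fold change of 2.51 ± 0.51 (edgeR adjusted p = 0.0634), and 0.85 ± 0.30 with the offset (edgeR adjusted p = 0.15). It passed the minimum of 1 CPM for naming only through its Bahd1-KO level, as did Prima1 below. Its counts were 30 to 42 per Bahd1-WT library, so its levels are less exact than those of the receptors. Pemt, an enzyme that makes phosphatidylcholine, was below that minimum with a mean of 0.955 CPM and was named after its values were seen, with log2 fold changes of 2.05 ± 0.50 without and 1.29 ± 0.38 with the offset (edgeR adjusted p = 0.0634 and 0.105), without overlap in both. Chka, a choline kinase that draws choline into membrane lipids, was 57.5 ± 6.75 CPM in Bahd1-WT and 44.5 ± 1.48 CPM in Bahd1-KO (SD, n = 3), with log2 fold changes of -0.37 ± 0.16 without and -0.68 ± 0.17 with the offset (edgeR adjusted p = 0.144 and 0.0838).

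Of the esterases and their anchors, Prima1 and Colq, which tether acetylcholinesterase in brain and at the neuromuscular junction, were higher at an unadjusted p under 0.05, 2 of 3 genes tested, and 0 with the offset. Prima1 had a mean of 0.633 ± 0.09 CPM in Bahd1-WT and 1.92 ± 1.38 CPM in Bahd1-KO, and Colq 1.06 ± 0.09 and 2.04 ± 0.57 CPM. Their log2 fold changes of 1.61 ± 0.48 and 0.95 ± 0.27 (edgeR adjusted p = 0.0733 and 0.067) became -0.07 and 0.09 with the offset, as that of their partner Ache became -0.10.

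Of the 12 other receptor genes tested, nicotinic subunits and a muscarinic receptor, 1 was higher at an unadjusted p under 0.05 and 0 were lower, with the offset as without it. It was Chrnb4, a subunit of the medial habenula, at 1.53 ± 0.14 CPM in Bahd1-WT and 2.62 ± 0.20 CPM in Bahd1-KO. Its log2 fold change was 0.77 ± 0.21 (edgeR adjusted p = 0.0664) and 0.61 ± 0.17 with the offset (edgeR adjusted p = 0.103), without overlap in both. Chrna5, an accessory subunit, had a log2 fold change of -0.48 ± 0.27 (edgeR adjusted p = 0.242) and -0.26 ± 0.21 with the offset (edgeR adjusted p = 0.531).

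Among 9 chaperones and modulators of the receptors, 4 were higher and 1 lower at an unadjusted p under 0.05, and 1 higher and 0 lower with the offset. Lynx1 and Ly6h, membrane proteins that bind nicotinic receptors and damp them, had log2 fold changes of 0.87 ± 0.22 and 1.22 ± 0.45 (edgeR adjusted p = 0.0634 and 0.112), and 0.06 and 0.79 with the offset. Lynx1 was at 211 ± 25.7 CPM in Bahd1-WT and 386 ± 106 CPM in Bahd1-KO. For Ly6h, Bahd1-KO replicate 2 had 116 CPM, against 37.5 and 31.5 CPM in the other Bahd1-KO samples and 22.3 to 29.4 CPM in Bahd1-WT.

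Among 10 genes of muscarinic signalling, 1 was higher and 2 lower at an unadjusted p under 0.05, and 0 higher and 3 lower with the offset. Gna11, a G protein subunit that carries the signal of Chrm1 and Chrm3, was at 38.7 ± 6.83 CPM in Bahd1-WT and 86.3 ± 39.8 CPM in Bahd1-KO, with a log2 fold change of 1.16 ± 0.33 (edgeR adjusted p = 0.0672) that became 0.10 with the offset. Kcnj3, a potassium channel subunit opened through Chrm2 and Chrm4, was at 240 ± 8.51 CPM in Bahd1-WT and 159 ± 43.9 CPM in Bahd1-KO. Its log2 fold change was -0.59 ± 0.21 (edgeR adjusted p = 0.101) and -0.23 ± 0.09 with the offset, without overlap in both.

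**Figure D5:**
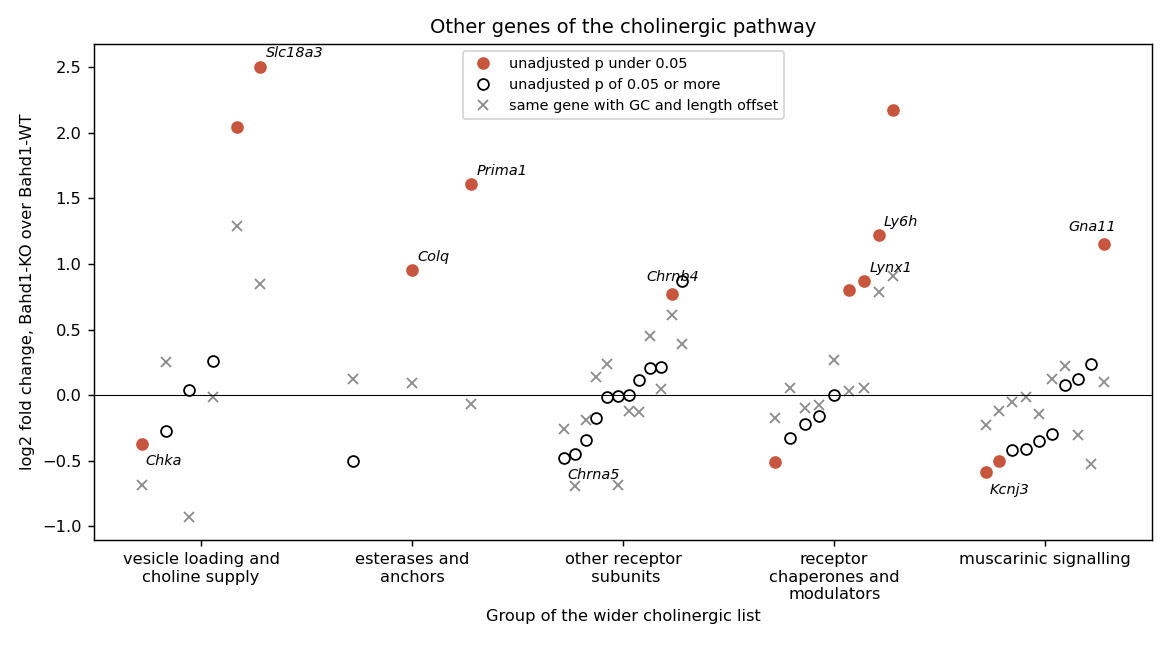
Log2 fold change of Bahd1-KO over Bahd1-WT for the 40 tested genes of the wider cholinergic list in 5 groups, ordered by value within each group, from edgeR without (circles, red where the unadjusted p is under 0.05) and with (crosses) the GC and length offset. The named genes are those with the largest changes at a mean of at least 1 CPM, where Slc18a3 has the largest value, 2.51. The mean is over both genotypes, and Slc18a3 and Prima1 pass it through Bahd1-KO.

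Markers of the cells that could hold these genes were read beside them, and counts at an unadjusted p under 0.05 again stand beside 19.9% of all genes higher and 12% lower, or 9.53% and 10.9% with the offset. The 6 markers of cholinergic neurons summed to 15.3 to 17.8 CPM in Bahd1-WT and 16.2 to 21.9 CPM in Bahd1-KO, all of them with counts in every library. Of these, Slc18a3 and Ngfr were higher and Isl1 lower at that p, 1 was higher and 1 lower with the offset, and Lhx8 and Gbx1, factors that specify cholinergic neurons of the forebrain, had log2 fold changes of 0.06 and 0.08 without and -0.04 and -1.19 with the offset. Over the 6 markers, 4 were higher and 2 lower (median log2 fold change 0.07), and with the offset 2 were higher and 4 lower (median -0.07). The 7 markers of striatal projection neurons, which carry Chrm4, summed to 568 to 643 CPM in Bahd1-WT and 562 to 728 CPM in Bahd1-KO, with 2 higher and 2 lower at that p, and 0 higher and 3 lower with the offset. The 6 markers of excitatory neurons of cortex and hippocampus summed to 1559 to 2070 CPM and 2043 to 3468 CPM, with 3 higher and 0 lower, and 0 higher and 1 lower with the offset.

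Brainstem motor neuron markers summed to 37.3 to 68.5 CPM in Bahd1-WT and 50.8 to 93.9 CPM in Bahd1-KO, with 1 of 5 higher, with the offset as without it, and Mnx1, the defining gene, had 0 counts in some libraries. Medial habenula markers summed to 39.8 to 59.0 CPM in Bahd1-WT and 46.8 to 59.0 CPM in Bahd1-KO, with 3 of 5 higher, with the offset as without it. Of the markers of other tissue, those of skeletal muscle, which carries Ache, Colq and muscle receptor subunits, summed to 1.13 to 1.57 CPM in Bahd1-WT and 1.95 to 9.95 CPM in Bahd1-KO, with 4 of 5 higher (3 with the offset) and Ckm at 0 in some libraries. Those of lung epithelium summed to 2.30 to 108 CPM in Bahd1-WT and 0.506 to 1.42 CPM in Bahd1-KO, with 5 of 5 lower, with the offset as without it. General neuronal markers summed to 7263 to 8403 CPM in Bahd1-WT and 5735 to 7457 CPM in Bahd1-KO, with 2 higher and 1 lower, and 2 higher and 2 lower with the offset. Slc18a3 and Chrnb4 stand both in the wider list and among these markers. The part of these cell types in the levels of the 10 genes was not tested.

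The genes whose profile over the 6 libraries was most like that of Chat, among 14705 genes with a mean of at least 1 CPM, were Mcam, Ahnak2, P2rx6, Cd6 and Adgra1. Their root-mean-square differences from Chat in log2 CPM, each profile centred on its mean, were 0.117 to 0.159. Slc18a3, the neighbour of Chat, ranked at 6646 in this order, and Slc5a7 at 12155. The profiles were taken without the GC and length offset. Transcript GC content was 53.7% to 58.0% in the 5 genes and 54.3% in Chat, against 61.2% in Slc18a3 and 40.8% in Slc5a7. The part of base composition in this order was not tested.

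The start sites of the genes also differ in base composition. The 250 bases before the RefSeq start are shown for Chrm4 and Ache, the genes with the largest log2 fold changes, and for Slc5a7, and Chrm2, those with the lowest, on build GRCm38.p6, with every CG dinucleotide in capitals.
Chrm4 promoter, chr2:91921939-91922188, plus strand: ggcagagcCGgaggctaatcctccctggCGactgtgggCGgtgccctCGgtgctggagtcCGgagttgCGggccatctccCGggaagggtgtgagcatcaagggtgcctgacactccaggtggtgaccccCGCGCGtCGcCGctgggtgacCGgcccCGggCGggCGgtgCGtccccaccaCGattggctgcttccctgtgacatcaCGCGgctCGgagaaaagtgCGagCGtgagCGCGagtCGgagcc
Ache promoter, chr5:137288004-137288253, plus strand: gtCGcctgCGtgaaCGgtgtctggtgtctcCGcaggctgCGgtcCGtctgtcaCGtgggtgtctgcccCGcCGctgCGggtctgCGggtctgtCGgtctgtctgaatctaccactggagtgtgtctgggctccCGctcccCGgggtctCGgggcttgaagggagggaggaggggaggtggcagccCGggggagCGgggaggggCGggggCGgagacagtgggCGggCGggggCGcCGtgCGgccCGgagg
Slc5a7 promoter, chr17:54299035-54299284, minus strand: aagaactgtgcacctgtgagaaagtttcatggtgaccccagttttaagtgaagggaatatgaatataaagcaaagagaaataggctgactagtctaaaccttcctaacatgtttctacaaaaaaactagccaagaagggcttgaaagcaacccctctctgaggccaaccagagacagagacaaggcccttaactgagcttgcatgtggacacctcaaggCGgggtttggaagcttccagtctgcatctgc
Chrm2 promoter, chr6:36387834-36388083, plus strand: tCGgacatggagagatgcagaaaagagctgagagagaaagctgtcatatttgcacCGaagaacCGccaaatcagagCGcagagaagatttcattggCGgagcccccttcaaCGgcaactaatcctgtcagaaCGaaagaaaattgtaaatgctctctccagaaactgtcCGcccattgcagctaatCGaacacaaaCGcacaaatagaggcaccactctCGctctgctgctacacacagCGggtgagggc
They hold 26, 25, 1 and 12 CG dinucleotides, where the median of 32851 mouse promoters of this length is 6, and 9.59%, 10.7%, 92.1% and 33.5% of promoters hold at least as many. A promoter entry was matched for 9 of the 10 genes. The RefSeq start is not always that of the gene positions above, and for Ache and Chrna4 it lies 735 and 4369 bases inside the GENCODE gene, as the stretch shown for Ache does. Chrna7 and Chrna4 hold 25 and 24 CG dinucleotides, Chrm3 and Chrnb2 hold 10 each and Chat holds 8. The GC box GGGCGG, counted on both strands, occurs 4 times before Ache, 3 times before Chrm4 and Chrna4, 1 time before Chrm2 and Chrna7 and 0 times before the others, and 32.7% of all promoters hold it. Log2 fold changes without the offset, with CG dinucleotides in brackets, were 1.90 for Chrm4 (26), 1.33 for Ache (25), 0.24 for Chrna7 (25) and 0.84 for Chrna4 (24). They were -0.37 for Chrm2 (12), 0.03 for Chrm3 (10), 0.11 for Chrnb2 (10), 1.00 for Chat (8) and -0.36 for Slc5a7 (1). A link between CG dinucleotides and change was not tested.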

How the data were processed

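RNA-seq of 6 brain hemispheres (3 Bahd1-WT, 3 Bahd1-KO) was analysed. The authors trimmed reads with Cutadapt, aligned them to GRCm38 and used featureCounts to count those on exons, with a strand setting whose fit to the kit was not settled. Both STAR and Tophat2 are named as aligners in the sources. The deposited counts are whole numbers without normalization, 1 column per mouse, with 0 columns of other samples.

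Genes whose counts summed to 10 or more were tested with edgeR 4.0.16 in R 4.3.3, by TMM normalization and a quasi-likelihood fit on genotype alone. P-values were adjusted by Benjamini-Hochberg over all genes tested. P-values measure the spread between 3 mice per genotype. Transcript GC content and exon length came from the GENCODE M21 annotation of GRCm38, which matched 99.9% of genes. The offset was a spline on GC content (5 degrees of freedom) and log length (3) fitted per library to 13283 genes. For each gene it was centred on the mean of the 6 libraries. Low levels are limited by 3 counts, or 0.0315 to 0.069 CPM, which covers counting error only. On simulated counts of 23521 genes with 200 changed 4-fold and no GC trend, edgeR recovered 200. With the GC trend of the libraries (23562 genes) it made 2896 false calls without the offset and 5 with it. On the measured counts edgeR called 2 of 23975 genes without the offset and 6 with it. Whether the simulation has the spread found between the mice was not tested.

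Alternatives were other scalings, DESeq2 1.42.0 with and without its prior, other filters, each sample left out, the replicate block and the offset. Genes were named by rule: the 10 genes, Bahd1, the 2 largest changes per group of the wider list at a mean of at least 1 CPM, and the 5 genes most like Chat. Ngfr, Isl1, Lhx8, Gbx1, Mnx1 and Ckm, from the marker lists, and Pemt were named after their values were seen, as were the untested Chrnd and Chrng. The genes, lists and ratios were chosen with earlier results of these data known. Promoters came from RefSeq; protein sequences were not used here. A gene of the marker lists is not reported here.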

Additional observations from a re-analysis of the deposited data

How the results depend on the processing

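The count of the 10 genes with an adjusted p under 0.05, 0 in edgeR with TMM factors, became 3 with total counts, 4 with DESeq2 with or without the prior and 4 with a minimum of 1 count, and ranged from 0 to 5 when single mice were left out, with 5 only without Bahd1-KO replicate 1. The wider list went from 0 to 6, 9, 9 and 8 under the same settings and from 0 to 14 with single mice left out, again with 14 only without Bahd1-KO replicate 1. Over all genes, edgeR called 2 of 23975, 2253 with total counts (9.4%), 3611 of 32795 with a minimum of 1 count (11%) and 7113 of 23690 without that mouse (30%), and DESeq2 called 4112 of 23975 without the prior (17.2%) and 4107 with it (17.1%). The median log2 fold change of the 10 genes, 0.41, was 0.078 with the GC and length offset and 0.077 with the offset and replicate block together, and 0.28 to 0.62 with single mice left out.

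Upper-quartile scaling moved the median of all genes from -0.06 to -0.20, and turned Chrm3 to -0.10 and Chrnb2 to -0.034. Chrm3 also turned when single mice were left out, over a range of -0.063 to 0.23, with -0.052 and -0.063 without Bahd1-WT replicates 1 and 2 and -0.029 without Bahd1-KO replicate 3. With the offset, Slc5a7 was 0.15, Ache -0.10, Chrm2 0.10, Chrna7 -0.036 and Chrnb2 -0.23, and with the offset and the block 0.17, -0.11, 0.10, -0.042 and -0.23. The Ache to Chat ratio had a log2 difference of -0.52 with the offset and of -0.076 without Bahd1-KO replicate 2, over a range of -0.076 to 0.51 with single mice left out. Chrm4 ranged from 1.26 to 2.42 and Ache from 0.85 to 1.67 with single mice left out. The cause of these shifts was not tested.

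Replicate numbers were not taken to pair the mice, as the labels name no pairs. Deviations of same-numbered samples from their group means correlated at -0.56, -0.60 and -0.13. These values cannot settle pairing, since deviations within a group of 3 depend on each other and were taken without the offset. With the replicate block, 0 of the 10 genes passed an adjusted p of 0.05 in edgeR (0.0292% of all genes) and 4 had an unadjusted p under 0.05 (21.8% of all genes), with adjusted p of 0.129 for Ache, 0.131 for Chrm4, 0.14 for Chat and 0.151 for Chrna4. The block brought the genes called in all from 2 to 7. Depth limits the genes with few counts, such as Chat with 106 to 382 and Slc18a3 with 30 to 441.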
